A study of Mus musculus with 25 samples.

Results

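Satellite cells are the stem cells of skeletal muscle. They lie between the muscle fibre and its basal lamina, and they are recognised and sorted by proteins on their surface. The proteins encoded by 10 genes used in this way were examined here at the level of chromatin: the adhesion molecules Cdh15 (M-cadherin), Itga7, Itgb1, Vcam1, Cd34, Ncam1 and Sdc4, and the receptors Met, Calcr and Cxcr4. The 10 genes were taken by name from 26182 mouse genes with a curated RefSeq transcript, and all 10 were found. For each gene, Spin1 and H3K4me3 peaks were collected at TSS±1 kb of every curated transcript, which is called the promoter, in the gene body, and within 50 kb on each side.

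Spin1 is a chromatin protein that binds, or reads, histone H3 trimethylated at lysine 4. This mark, H3K4me3, is laid down mainly around the start sites of genes that are active or ready for activation, and most often at promoters rich in CpG dinucleotides. Satellite cells that leave quiescence become myoblasts, which divide and later fuse into fibres. Some surface proteins, such as M-cadherin and integrin α7β1, are present before and after this step, whereas the calcitonin receptor Calcr is known as a protein of quiescent satellite cells that is lost upon activation.

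ChIP-seq was done in primary myoblasts, which were grown from the limb muscles of C57BL/6 mice (the N substrain, per the study's methods) at an age of 10 days and for which the labels give no engineered allele or treatment. The cells were enriched by letting fibroblasts settle out on plastic, and they are cultured, dividing cells and not freshly sorted satellite cells. One library was made with an antibody against Spin1 and 1 with an antibody against H3K4me3, and an input library served as control for calling peaks. A peak is an interval in which the reads exceed the input, and its score is larger when the excess is less likely to arise by chance. Scores pile up at 3100, a value that was reached or passed by 30.9% of 17106 Spin1 peaks and by 45.2% of 30763 H3K4me3 peaks, and such peaks cannot be ranked. Read depth behind a peak is unknown. With 1 library per antibody, no difference between genes has a replicate check, and no test was made.

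Peaks were also counted at lists of marker genes of several cell types. The lists were chosen with earlier results of these data known, and the paper had shown both marks at Myod1, Myf5 and Msc. The counts are thus no independent check of the cell type, and a promoter peak does not measure expression. All 6 genes of myoblast identity (Myod1, Myf5, Pax7, Pax3, Des and Msc) carried both Spin1 and H3K4me3 at the promoter. None of the 7 leukocyte genes and none of the 7 endothelial genes carried Spin1. A weak H3K4me3 peak with a score of 51.78 at Cd68 was the only peak at a leukocyte promoter, and 4 endothelial genes had H3K4me3, among them Kdr with a score of 3100. Spin1 was also found at 3 of 7 genes of fibroblasts and fibro-adipogenic progenitors (Pdgfra, Cd248 and Col1a1), at 4 of 7 genes of pericytes and smooth muscle (Cspg4, Pdgfrb, Mcam and Kcnj8), at 2 of 6 Schwann cell genes (Egr2 and Pmp22) and at 3 of 7 genes of differentiated fibres (Acta1, Mylpf and Tnnt3). These counts stand beside 56.7% of all protein-coding genes with Spin1 at the promoter, and the shares of the pericyte, fibroblast and fibre lists were near or below it. H3K4me3 was found at all 7 fibroblast genes, 6 of 7 pericyte, 5 of 6 Schwann cell and 5 of 7 fibre genes. Among all protein-coding genes, the share with H3K4me3 was 68.0%. Since Vcam1, Cd34, Ncam1, Itgb1 and Cxcr4 are expressed by several of these cell types as well, fewer cells with a peak and a weaker peak per cell cannot be told apart. A part of other cells in the peaks described here was not tested.

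The promoters of 6 of the genes show the range of sequence on which these peaks lie. The 250 bases directly upstream of the TSS of the RefSeq Select transcript are given for Cdh15 and Vcam1, which are poor in CpG and carried Spin1, for Itgb1 and Met, which are rich in CpG and carried Spin1, for Calcr, the member without Spin1, and for Cd34, which had the weakest Spin1 peak. They are read 5′ to 3′ on the strand of the gene from the RefSeq assembly GRCm38.p6, and capitals mark every CpG.
Cdh15, chr8:122848124-122848373 (+): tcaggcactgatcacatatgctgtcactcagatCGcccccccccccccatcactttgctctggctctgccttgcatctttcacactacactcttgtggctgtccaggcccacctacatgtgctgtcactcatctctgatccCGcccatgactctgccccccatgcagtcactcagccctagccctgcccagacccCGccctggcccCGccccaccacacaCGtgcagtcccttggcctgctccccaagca
Vcam1, chr3:116129689-116129938 (-): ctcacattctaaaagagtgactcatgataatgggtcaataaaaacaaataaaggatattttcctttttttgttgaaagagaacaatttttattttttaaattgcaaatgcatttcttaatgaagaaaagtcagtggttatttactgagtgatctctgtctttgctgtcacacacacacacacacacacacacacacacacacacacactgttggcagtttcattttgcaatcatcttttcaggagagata
Itgb1, chr8:128685404-128685653 (+): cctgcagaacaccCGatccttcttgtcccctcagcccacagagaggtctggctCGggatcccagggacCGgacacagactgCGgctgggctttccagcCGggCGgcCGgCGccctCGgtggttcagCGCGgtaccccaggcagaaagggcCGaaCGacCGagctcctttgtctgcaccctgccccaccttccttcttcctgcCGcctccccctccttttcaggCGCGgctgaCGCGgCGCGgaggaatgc
Met, chr6:17463707-17463956 (+): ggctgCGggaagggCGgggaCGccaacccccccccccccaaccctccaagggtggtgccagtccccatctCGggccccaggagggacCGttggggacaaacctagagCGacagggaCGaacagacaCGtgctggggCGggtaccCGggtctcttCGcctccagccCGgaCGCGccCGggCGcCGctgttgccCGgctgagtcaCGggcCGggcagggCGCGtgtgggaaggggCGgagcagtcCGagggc
Calcr, chr6:3763624-3763873 (-): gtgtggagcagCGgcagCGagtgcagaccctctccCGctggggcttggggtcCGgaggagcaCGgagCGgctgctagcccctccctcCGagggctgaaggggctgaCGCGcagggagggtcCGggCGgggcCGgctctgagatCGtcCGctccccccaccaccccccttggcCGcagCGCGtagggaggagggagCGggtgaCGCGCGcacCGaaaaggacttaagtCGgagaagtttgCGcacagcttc
Cd34, chr1:194938571-194938820 (+): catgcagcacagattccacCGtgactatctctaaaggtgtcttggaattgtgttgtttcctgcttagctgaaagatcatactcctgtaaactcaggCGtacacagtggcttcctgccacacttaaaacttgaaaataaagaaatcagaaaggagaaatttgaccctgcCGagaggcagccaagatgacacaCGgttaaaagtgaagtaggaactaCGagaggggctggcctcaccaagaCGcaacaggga
Vcam1 had no CpG in these 250 bases and a GC content of 33.2%. Cdh15 had 5 CpGs and Cd34 had 6. Itgb1 had 21, and both Met and Calcr had 24. The stretch at Calcr, where no Spin1 was found, was thus as dense in CpG as the one at Met, where Spin1 was found.

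An H3K4me3 peak was present at the promoter of all 10 genes, and each of these peaks had a score of 3100. This score is usual at promoters: the lower quartile was also 3100 for 14111 protein-coding genes with H3K4me3 at the Select TSS. Among 21000 protein-coding genes, 68.0% (95% Wilson confidence interval 67.4 to 68.6%, for counting error only) had H3K4me3 at the promoter. Spin1 was present at 9 of the 10 promoters, against 56.7% (56.0 to 57.4%) of protein-coding genes, and both marks were present at the same 9, against 56.7% (56.0 to 57.3%). Calcr had H3K4me3 without Spin1, a state seen at 11.3% (10.9 to 11.8%) of protein-coding genes. When a peak was counted only if its center lay inside TSS±1 kb, 3 of the 10 genes (Cd34, Sdc4 and Met) kept Spin1 and 2 (Calcr and Cxcr4) kept H3K4me3, against 52.7% and 56.3% of protein-coding genes. The centers of the other 6 Spin1 peaks lay from 1.1 to 2.2 kb downstream of the TSS.

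**Figure D1:**
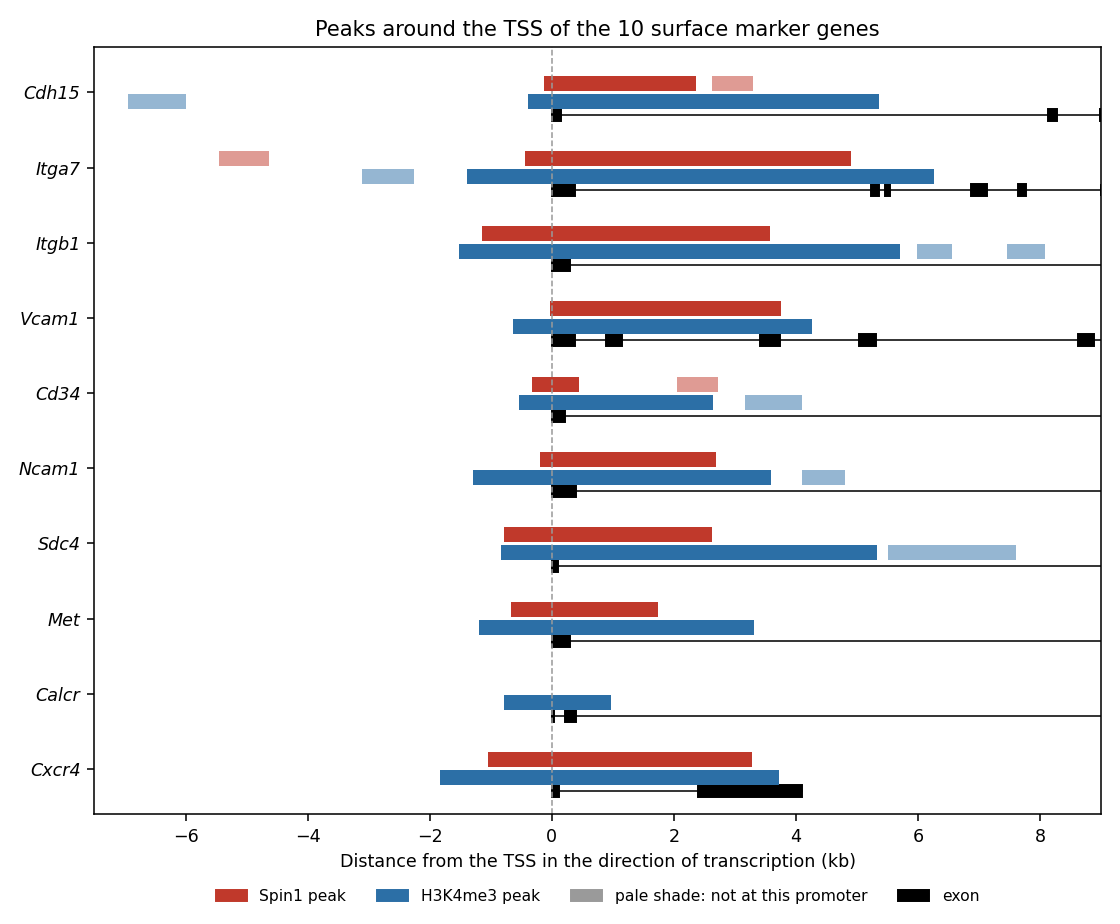
Spin1 peaks (red) and H3K4me3 peaks (blue) around the TSS of the 10 genes, drawn to scale by distance from the RefSeq Select TSS in kb, with the exons of that transcript in black and the gene cut at 9 kb. Peaks at the promoter of the gene are dark and other peaks pale. In 9 genes the Spin1 peak lies within the H3K4me3 peak and reaches further downstream than upstream, and Calcr has H3K4me3 alone.

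Cdh15 encodes M-cadherin, which holds satellite cells to the fibre. The gene lies on chromosome 8 of GRCm38 from 122848374 to 122867397 on the plus strand. Its Spin1 peak, from 122848252 to 122850742, was 2491 bp wide with a score of 2139.7 and covered exon 1 and the start of intron 1. It began 122 bp upstream of the TSS and ended 2368 bp downstream. The H3K4me3 peak was 5739 bp wide and reached 5354 bp downstream, also within intron 1. A second, weaker Spin1 peak of 684 bp with a score of 118.58 lay in the same H3K4me3 domain at +3.0 kb, so that this domain held a pair of separate Spin1 peaks.

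Integrin α7β1 is the laminin receptor of muscle cells, built from the products of Itga7 and Itgb1. Itga7 (chromosome 10 from 128933813 to 128958286, plus strand) had the widest Spin1 peak of the members, 5342 bp from 128933371 to 128938712, which was wider than or equal to 98.1% of the Spin1 peaks at protein-coding promoters. The peak reached 4899 bp downstream of the TSS over exon 1 and intron 1. Its H3K4me3 peak was 7648 bp wide and ran from 1393 bp upstream to 6254 bp downstream, into intron 3. Itgb1 (chromosome 8 from 128685654 to 128733579, plus strand) had a Spin1 peak of 4721 bp, at the percentile 96.2, from 128684513 to 128689233, and an H3K4me3 peak of 7221 bp. Both Spin1 peaks had a score of 3100. Itgb1 is the common β subunit for many α subunits, and its Spin1 peak extended upstream as well, by 1141 bp, the longest upstream reach among the members.

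Vcam1 encodes a ligand of integrin α4β1 and is widely used to sort satellite cells. The gene lies on chromosome 3 from 116110020 to 116129688 on the minus strand. Its Spin1 peak, 3782 bp from 116125940 to 116129721 with a score of 1809.46, ended only 33 bp upstream of the TSS and covered the first 3 exons to 3748 bp downstream. Only 3.1% of protein-coding genes with Spin1 had an upstream reach as short as this or shorter, and the downstream reach was at the percentile 97.9. H3K4me3 was 4907 bp wide and extended 642 bp upstream.

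Cd34 encodes a sialomucin found on satellite cells as well as on endothelial and blood-forming cells. In the gene, on chromosome 1 from 194938821 to 194961292 on the plus strand, Spin1 was weak. The promoter peak, from 194938496 to 194939265, was 770 bp wide with a score of 128.13, at the percentiles 3.7 for width and 2.6 for score, and 5.24% of genes with Spin1 had a score under 200. Another Spin1 peak of 673 bp with a score of 106.2 lay at +2.4 kb in intron 1. The H3K4me3 peak of 3179 bp, near the median of protein-coding genes (3230 bp), spanned the promoter peak and most of the intronic one. Without the weaker 50% of peaks of each list, Spin1 at the Cd34 promoter was no longer counted, and 8 of the 10 genes kept Spin1, against 42.9% of protein-coding genes under the same limit.

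Ncam1, a cell adhesion molecule of the immunoglobulin family, lies on chromosome 9 from 49502129 to 49799393 on the minus strand and spans 297265 bp. Its Spin1 peak, from 49796373 to 49799264, was 2892 bp wide with a score of 3100. The peak included the Select TSS at 49799069 and ended 129 bp short of the other annotated TSS at 49799393. H3K4me3 covered both start sites over 4885 bp. Sdc4, a heparan sulphate proteoglycan that presents growth factors, lies on chromosome 2 from 164424247 to 164443188 on the minus strand. It had a Spin1 peak of 3421 bp, from 164440558 to 164443978, with a score of 3100, inside an H3K4me3 peak of 6154 bp. The upstream edges of both peaks were 39 bp apart at Sdc4, whereas the downstream edges were 2694 bp apart.

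Met is the receptor of hepatocyte growth factor, which wakes satellite cells from quiescence. The gene lies on chromosome 6 from 17463957 to 17573980 on the plus strand. Its Spin1 peak, 2418 bp from 17463282 to 17465699 with a score of 2599.54, was close to the median width of Spin1 peaks at protein-coding promoters (2289 bp). Cxcr4, the receptor of the chemokine Cxcl12, is the shortest gene of the list with 4101 bp on chromosome 1 from 128588199 to 128592299 on the minus strand. A Spin1 peak of 4313 bp, from 128589025 to 128593337, with a score of 3100 covered exon 1, intron 1 and part of exon 2, the last exon. The H3K4me3 peak of Cxcr4 was 5548 bp wide, longer than the gene.

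Calcr, the calcitonin receptor gene, lies on chromosome 6 from 3685678 to 3764713 on the minus strand. No Spin1 peak was found at its promoters, in its body or within 50 kb on either side. A single H3K4me3 peak of 1749 bp, from 3762653 to 3764401, covered the Select TSS at 3763623, and the other TSS at 3764713 lay 312 bp outside it. This was the narrowest promoter H3K4me3 peak of the members, and 11.1% of protein-coding genes with H3K4me3 had a peak of this width or less. Calcr was also the member whose H3K4me3 reached least far downstream, 970 bp, while it reached 778 bp upstream. Of the 1609 protein-coding genes whose promoter H3K4me3 peak was within 20% of this width, 48.0% carried Spin1, and of the 1142 with a score of at least 3100 among them, 60.3% did. Narrow H3K4me3 peaks therefore occurred both with and without Spin1. The microRNA genes Mir489 and Mir653, of which Mir489 is known to keep satellite cells quiescent, lie within Calcr 41.6 kb and 42.2 kb downstream of the Select TSS, and their starts had neither mark.

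The widths of the marks at all members lay mostly in the upper part of the range of protein-coding genes. For the 9 members with Spin1, widths were lowest at Cd34 (770 bp), had a median of 3421 bp and were highest at Itga7 (5342 bp), and the median of 11726 protein-coding genes with Spin1 at the Select TSS was 2289 bp. H3K4me3 widths were lowest at Calcr (1749 bp), had a median of 5227.5 bp and were highest at Itga7 (7648 bp), against a median of 3512 bp for protein-coding genes with both marks and 1662 bp for those with H3K4me3 alone. Calcr was thus close to the second class and the other members, apart from Cd34, were above the median of the first. The plot of both widths shows that the members other than Cd34 lay in the general band in which wide Spin1 peaks accompany wide H3K4me3 peaks. The Spin1 peak of Cd34 was narrow for its H3K4me3 width. Its bin held 8 genes, and the fullest bin of the same H3K4me3 width, with Spin1 from 2249 bp, held 347. These are values of 1 library each, and wide peaks of different genes share its depth.

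**Figure D2:**
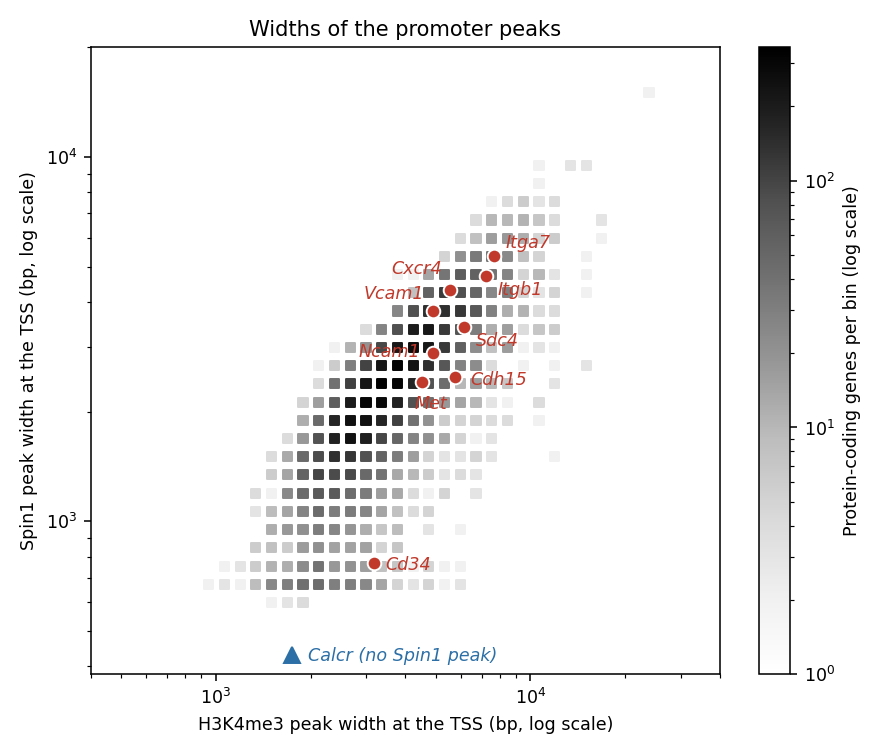
Width of the Spin1 peak against width of the H3K4me3 peak at the Select TSS, both in bp on log scales. Grey squares count protein-coding genes with both peaks per bin, red points are the 9 members with Spin1, and the triangle at the lower edge marks the H3K4me3 width of Calcr, which has no Spin1 peak. Itga7 and Itgb1 lie at the upper right of the band, and Cd34 lies below most genes of its H3K4me3 width.

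The peaks of most members ran far into the gene. Spin1 reached a median of 2696 bp downstream of the TSS in the members and 1404 bp in protein-coding genes with Spin1, and the respective medians upstream were 442 bp and 764 bp. All 9 Spin1 peaks reached further downstream than upstream, and 81.6% of the 11726 protein-coding genes shared this. For H3K4me3 the median reach was 3989.5 bp downstream and 1014.5 bp upstream in the members, against 2003 bp and 1046 bp. All 9 Spin1 peaks lay within the H3K4me3 peak, and 92.2% of the 11718 protein-coding genes with both marks at the Select TSS had this arrangement. All Spin1 peaks on the H3K4me3 peak, with the intronic ones at Cdh15 and Cd34 included, covered from 42.7% (Cd34) to 77.7% (Cxcr4) of it. For protein-coding genes with both marks, counted in the same way, the median was 66.2%. Distances between genes were not tested, since genes of 1 library are not replicates.

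The base composition around the TSS set Cdh15 and Vcam1 apart. Within TSS±500 bp, the ratio of observed to expected CpG was 0.262 at Cdh15 and 0.279 at Vcam1. Of 6161 protein-coding genes with a ratio under 0.3, 6.2% had Spin1 and 12.1% had H3K4me3, and both genes carried both marks. Cd34 (0.483), Calcr (0.507) and Itga7 (0.587) fell in the class from 0.3 to 0.6, in which 46.0% of 4312 genes had Spin1 and 71.8% had H3K4me3. The other 5 members, from Ncam1 (0.608) to Itgb1 (0.928), fell in the class of 0.6 and above, in which 90.7% of 10527 genes had Spin1. Over this longer window Calcr was poorer in CpG than Met (0.708), although the 250 bases upstream printed above held 24 CpGs in each.

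**Figure D3:**
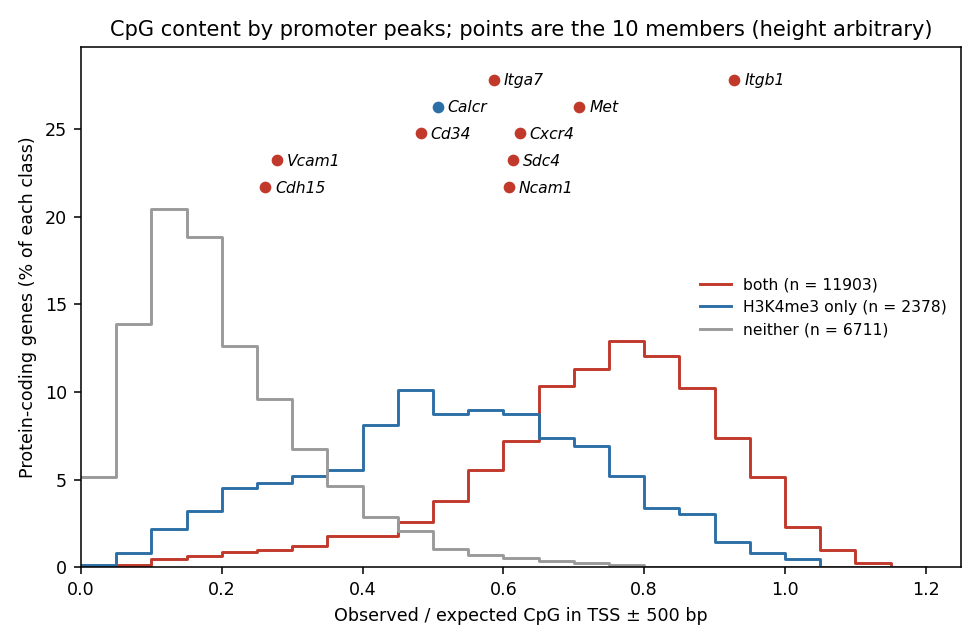
Distribution of the observed to expected CpG ratio in TSS±500 bp for protein-coding genes with both peaks, H3K4me3 only or neither, as percent of each class per bin of 0.05. Points are the 10 members (Calcr in blue, their height carries no value). Vcam1 and Cdh15 have ratios of 0.279 and 0.262, below most genes with both peaks.

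Short motifs were counted on both strands in the 300 bases from 250 bases upstream to the first 50 transcribed bases. The E-box CANNTG, which Myod1 and other bHLH proteins bind, occurred in 4 of the 10 promoters (Cdh15, Vcam1, Ncam1 and Met), against 67.8% of 21000 protein-coding promoters. Cdh15 had 4 copies, which begin at -236, -135, -32 and -2 relative to the TSS, and the one at -32 reads CACGTG. The subset CAGCTG occurred in no member and in 15.2% of all promoters. GGGCGG, the core of the GC box, was found in 7 members and in 49.2% of promoters, with 4 copies each at Itga7 and Sdc4. TATAAA was found at Vcam1 and Cxcr4 and in 12.8% of promoters, CATTCC, a core of TEAD sites, at Itga7 and Itgb1 and in 13.0%, and TGGGAA, a core of Rbpj sites, at Met and in 24.0%. A match of letters does not show a bound factor, and its lack in this window does not show that none is bound nearby.

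Outside the promoters of all curated transcripts, the loci of the 10 genes held 7 Spin1 peaks and 29 H3K4me3 peaks. Starts of predicted transcripts were not examined. A peak of this kind lay in the gene body of 3 members for Spin1 (Cdh15, Cd34 and Sdc4), against 9.03% (8.65 to 9.42%) of protein-coding genes, and of 7 members for H3K4me3 (Itgb1, Vcam1, Cd34, Ncam1, Sdc4, Met and Calcr), against 21.3% (20.8 to 21.9%). The members are longer than other genes, with a median of 23473 bp against 16724 bp, and protein-coding genes with such H3K4me3 peaks had a median length of 49380.5 bp. The part of gene length in these counts was not tested. The 7 Spin1 peaks were narrow, from 651 to 1046 bp, and weak, with scores from 106.2 to 174.91 and a median of 118.6, against a median of 144.7 for the 5309 Spin1 peaks outside promoters in the genome. Flanks of 25 kb left 4 of these Spin1 peaks, and none was among the 50% of Spin1 peaks with the highest score. Under the same limit for H3K4me3, the count of members with such a peak in the gene body fell from 7 to 1 (Vcam1).

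**Figure D4:**
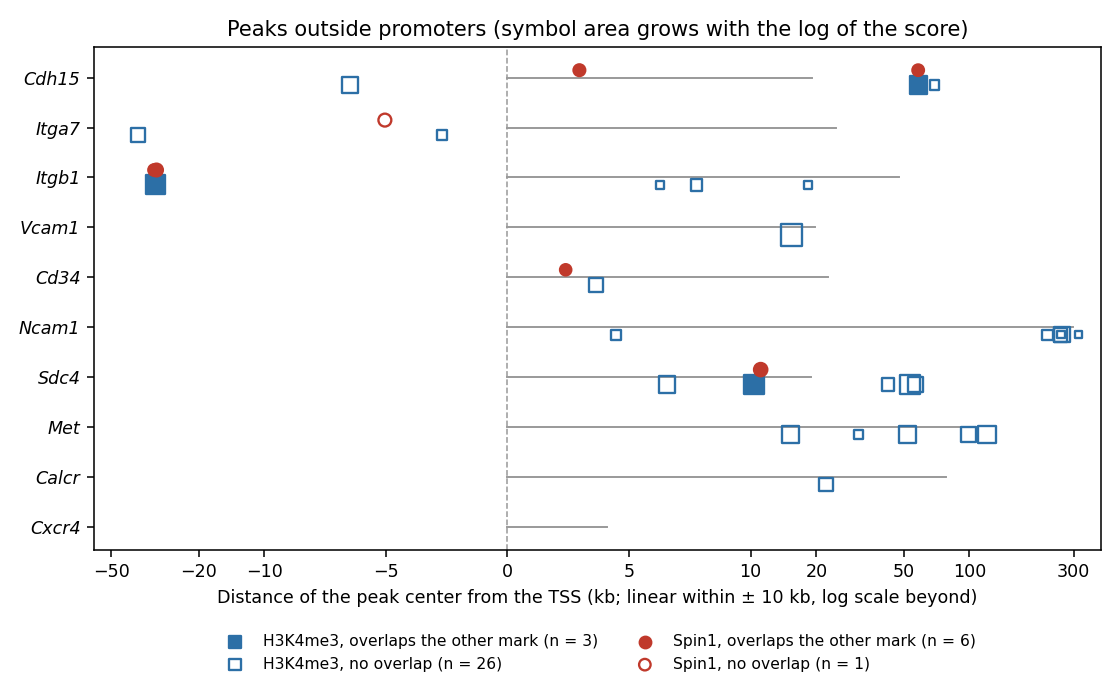
Peaks outside promoters in the 10 loci by distance of the peak center from the TSS (kb, linear within 10 kb and log scale beyond), with Spin1 as circles and H3K4me3 as squares, filled where the peak overlaps the other mark. Symbol area grows with the log of the score, and lines show the gene bodies. Of 7 Spin1 peaks 6 are filled, and of 29 H3K4me3 peaks 3 are.

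Of the 7 Spin1 peaks, 6 overlapped H3K4me3, and 72.6% of Spin1 peaks outside promoters did so in the genome. The strongest one, 1046 bp with a score of 174.91, lay in intron 1 of Sdc4 at +11.1 kb on an H3K4me3 peak of 2494 bp with a score of 1409.66. A pair of Spin1 peaks with scores of 109.13 and 150.82 lay at -31.9 kb and -31.1 kb from the TSS of Itgb1, both on 1 H3K4me3 peak of 1756 bp with a score of 1155.14. Downstream of Cdh15, a Spin1 peak with a score of 112.74 at +58.3 kb lay on an H3K4me3 peak with a score of 668.52. At Cdh15 and Cd34, as described above, the intronic Spin1 peaks lay on the H3K4me3 domain of the promoter. The remaining Spin1 peak, 5.0 kb upstream of Itga7, had a score of 157.17 and no H3K4me3 peak on it.

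H3K4me3 outside promoters was mostly without Spin1. Of the 29 peaks, 3 overlapped Spin1, and the share in the genome was 17.6% of 16158 peaks. The lowest score was 50.18, the highest 3100 and the median 200.9, close to the genome's median of 202.8, and 19 of the 29 remained at a score of at least 100. Vcam1 carried the strongest one, a peak of 2531 bp with a score of 3100 from 116112997 to 116115527, which is centered 15.4 kb downstream of the TSS on intron 7, exon 8 and intron 8. In the genome, 1610 H3K4me3 peaks outside promoters reached this score, and 458 of them (28.4%) lacked Spin1, as the one in Vcam1 did.

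The Spin1 peak without H3K4me3 at Itga7 and the strong H3K4me3 peak without Spin1 in Vcam1 are the only Spin1 peak in these loci without H3K4me3 and the H3K4me3 peak with the highest score among those outside promoters, which had no Spin1. The 300 bases at the center of each are given on the strand of the gene from GRCm38.p6, with every E-box CANNTG in capitals, the motif that myogenic bHLH proteins bind.
Itga7 upstream Spin1 peak, chr10:128928621-128928920 (+): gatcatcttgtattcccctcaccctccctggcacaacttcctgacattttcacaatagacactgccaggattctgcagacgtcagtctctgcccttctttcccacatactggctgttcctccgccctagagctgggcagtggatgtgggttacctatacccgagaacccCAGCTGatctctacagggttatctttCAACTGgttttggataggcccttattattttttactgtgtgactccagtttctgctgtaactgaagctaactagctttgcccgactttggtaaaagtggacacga
Vcam1 intragenic H3K4me3 peak, chr3:116114113-116114412 (-): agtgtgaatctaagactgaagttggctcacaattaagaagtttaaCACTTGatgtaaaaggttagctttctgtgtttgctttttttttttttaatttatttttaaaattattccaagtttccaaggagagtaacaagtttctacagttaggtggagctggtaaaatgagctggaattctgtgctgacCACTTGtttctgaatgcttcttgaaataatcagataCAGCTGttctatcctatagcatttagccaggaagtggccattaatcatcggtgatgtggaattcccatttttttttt
The Itga7 stretch held 2 E-boxes, of which 1 was CAGCTG, and had a GC content of 48.3%. The Vcam1 stretch held 3, of which 1 was CAGCTG, and was AT-rich with a GC content of 34.0% and 1 CpG. Neither lies at an annotated TSS of a curated transcript. In windows of the same length at 21000 protein-coding promoters, CANNTG occurred in 67.8% and CAGCTG in 15.2%. Binding of a bHLH protein to either stretch was not tested.

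Among the long genes, Met had 4 H3K4me3 peaks in introns without Spin1, at +15.2 kb (score 666.9), +31.2 kb (62.0), +52.2 kb (581.83) and +98.9 kb (275.14), and 1 more beyond its end at +120.1 kb with a score of 702.04. Ncam1 had 5, of which 3 formed a group in intron 13 at about 261 to 265 kb from the TSS, the strongest with scores of 336.76 and 199.31. The other 2 lay in intron 1, the stronger at +227.4 kb with a score of 84.92. Calcr had 1 in intron 3 at +22.2 kb with a score of 190.38, at a distance of 18.9 kb from Mir489. Itgb1 had 3 in intron 1, at +6.3, +7.8 and +18.4 kb, with scores of 50.56, 107.52 and 54.71. Cd34 had 1 at +3.6 kb with a score of 200.88, and Sdc4 had a further one at +6.6 kb with a score of 474.4. Upstream of Cdh15 an H3K4me3 peak at -6.5 kb had a score of 474.92, and upstream of Itga7 H3K4me3 peaks at -2.7 and -37.8 kb had scores of 74.29 and 222.62. Downstream of Cdh15, H3K4me3 peaks without Spin1 at +56.7 and +69.2 kb had scores of 66.95 and 71.84. In the flanks of Sdc4, the strongest of 3 H3K4me3 peaks, at +53.6 kb, had a score of 1302.63. Those at +56.7 and +42.4 kb had scores of 307.6 and 151.81. No peak outside the promoter was found in the locus of Cxcr4.

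Other genes start in the loci of Itga7, Cd34, Ncam1, Sdc4 and Calcr, 17 in all. Both marks were present at 8 of them, H3K4me3 alone at 2 and neither at 7. Upstream of Itga7, Cd63, Rdh5 and Bloc1s1 shared 1 H3K4me3 peak of 16027 bp, which overlapped Spin1 peaks of 4743 and 6918 bp, and Gdf11 also had both marks. Next to Cd34, the start of the long noncoding RNA gene Gm16897 had a Spin1 peak of 1638 bp with a score of 3100, well above the scores of 128.13 and 106.2 in Cd34 itself. Near Sdc4, Sys1 and Dbndd2 had both marks, and Matn4 and Rbpjl had H3K4me3 alone. Ttc12 next to Ncam1 had both. Peaks at these starts were not counted as peaks of the members.

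The ligands, subunits and signalling partners of the 10 proteins were compared by state. Of 34 such genes, 27 had both marks, 6 had H3K4me3 alone and 1 had neither, beside the 56.7% of protein-coding genes with both. When the peak center had to lie inside TSS±1 kb, 17 of the 34 kept Spin1, against 52.7% of protein-coding genes under the same limit. Of the 11 α subunits other than Itga7 that pair with Itgb1, 8 had both marks, with Spin1 widths from 701 bp at Itga2 to 5901 bp at Itgav. Itga4 and Itga11 had H3K4me3 alone, and Itga10 had neither. Itga4 encodes the α subunit of integrin α4β1, a receptor of Vcam1. Vcam1 and Itgb1, the gene of the β subunit, carried Spin1 at the promoter, and Itga4 did not. The H3K4me3 peak of Itga4 was 2749 bp wide with a score of 3100.

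Ligand genes differed in the same way. Hgf, the ligand of Met, had H3K4me3 of 3155 bp without Spin1, whereas Cxcl12, the ligand of Cxcr4, had a Spin1 peak of 2478 bp with a score of 2424.26, and Ackr3, another receptor of Cxcl12, one of 2759 bp. Partners of Calcr were found in both states. Calca, which encodes calcitonin, and Ramp1 and Ramp3, which encode accessory proteins of calcitonin-family receptors, had H3K4me3 without Spin1 as Calcr did, and Ramp2 had both with a Spin1 score of 328.52. The H3K4me3 peaks of Calca and Ramp1 were 1342 and 1581 bp wide.

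The catenins Ctnnb1, Ctnna1 and Ctnnd1, which link cadherins such as M-cadherin to actin, all carried Spin1 with a score of 3100 and widths of 4263, 2749 and 5558 bp. The syndecans Sdc1, Sdc2 and Sdc3 carried Spin1 as Sdc4 did, and so did Fgfr1 and Fgfr4, receptors for growth factors that bind syndecans. Col5a1, whose product is a collagen that binds Calcr, had both marks, unlike Calcr, with a Spin1 peak of 4561 bp. Gab1 and Grb2, adaptors of Met, and Plxnb1, which associates with Met, carried both marks. Podxl, a relative of Cd34, had a Spin1 peak of 681 bp with a score of 103.91, as weak as the one in Cd34. The sialyltransferases St8sia2 and St8sia4, which add polysialic acid to Ncam1, had Spin1 scores of 1863.34 and 138.32. Of the 27 partners with Spin1, 3 had a score under 200 (Itga2, St8sia4 and Podxl) and 11 reached 3100, by the highest score at any TSS. For the 11726 protein-coding genes with Spin1 at the Select TSS, the score of the widest peak there had a median of 2987.1 and an upper quartile of 3100. A score under 200 was found at 5.24% of them.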

How the data were processed

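Spin1 and H3K4me3 ChIP-seq libraries of primary myoblasts were used, 2 of 25 samples. RNA-seq of 22 samples and the input were left out. The antibody label of the H3K4me3 library reads H3K4me. The authors mapped reads to mm10 with Bowtie2, called peaks with MACS 1.4.2 against input and removed peaks above a false discovery rate of 1%. The deposited values are peak positions and a MACS score, which grows with depth and peak width, so scores were compared only within a list.

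Starts were counted from 1. Peaks were joined to curated transcripts of RefSeq (GRCm38.p6) by an overlap of at least 1 bp, and promoters were TSS±1 kb. Widths, reach and base composition use the RefSeq Select TSS, or the longest transcript. Of the 10 promoters, 7 were in the RefSeq promoter table, with identical sequence. The code was checked on simulated peaks at isolated genes with 1 TSS, and all 5223 planted promoters were recovered without a false one. This check does not cover genes with several or close start sites, nor the accuracy of the deposited peaks.

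Shares carry 95% Wilson intervals. Members, lists and motifs were chosen with earlier results of these data known. Named genes are all members with their peaks (at most 5 per locus, otherwise the strongest 3), neighbours with a peak at their start, and list genes by state. In the marker lists, 2 genes are not reported here. Python 3.11.15, pandas 2.3.3, SciPy 1.17.1, pysam 0.24.0, samtools 1.23.1 and matplotlib 3.10.9 were used. Alternatives were other promoter windows, 1 TSS per gene, score limits, peak centers, flanks and a 50% overlap.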

Additional observations from a re-analysis of the deposited data

How the results depend on the processing

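The 11 results gave 58 values under the alternative settings. Of these values, 36 stayed within 1.5 times of a count or within the confidence interval of a share. When the peak center had to lie inside TSS±1 kb, 3 members had Spin1, 2 had H3K4me3 and 0 had both, and the shares of protein-coding genes were 52.7%, 56.3% and 45.2%. Keeping only the top-scoring 50% of each list, the shares were 42.9% for Spin1, 63.0% for H3K4me3 and 42.9% for both, 0 members had Spin1 and 1 (Vcam1) had H3K4me3 in the gene body outside promoters, and the loci held 0 Spin1 peaks, 1 H3K4me3 peak and 0 Spin1 peaks on H3K4me3 outside promoters. With 1 TSS per gene, the shares were 55.8%, 67.2% and 55.8%. The H3K4me3 share was 68.7% with TSS±2 kb and 67.3% with a score of at least 100, which also left 19 H3K4me3 peaks outside promoters in the loci. With 25 kb on each side, the loci held 4 Spin1 peaks outside promoters, of which 3 overlapped H3K4me3. Of the 18 promoter counts of the members, 15 stayed within 1.5 times, and the other 3 were those by peak center. For the marker and partner lists, added after seeing the data, 46 of 48 counts of genes with Spin1 stayed within 1.5 times, and those by peak center fell from 27 to 17 partners and from 4 to 2 pericyte genes.

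No paired analysis was possible because no antibody was used on more than 1 library. Depth is unknown, so that a peak missing from a list, such as Spin1 at Calcr, was not detected at this depth and is not shown to be absent. No spread between cultures can be given, and scores at 3100 have no order.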
